A study of Oryza sativa with 58 samples.

Results

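The genes described here encode the first enzymes of the phenylpropanoid pathway of rice, namely the 9 genes of the phenylalanine ammonia-lyase (PAL) family and the gene LOC_Os05g25640 for cinnamate 4-hydroxylase (C4H). They are 10 of the 55986 genes listed, were taken by their identifiers, and all 10 were found in the files. PAL removes the amino group of phenylalanine to give cinnamate, and C4H, a cytochrome P450 of the endoplasmic reticulum, hydroxylates cinnamate to p-coumarate. The products feed the synthesis of lignin in cell walls, of flavonoids and of other phenolic compounds, including some that plants make against pathogens and under stress. PAL genes of grasses often occur as several copies, some of them side by side. In rice, LOC_Os02g41630, LOC_Os02g41650, LOC_Os02g41670 and LOC_Os02g41680 form a tandem cluster of 4 genes on chromosome 2, LOC_Os04g43760 and LOC_Os04g43800 are a pair on chromosome 4, and LOC_Os05g35290, LOC_Os11g48110 and LOC_Os12g33610 are single genes on chromosomes 5, 11 and 12.

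RNA-Seq of young leaves was analysed for 17 rice varieties (Oryza sativa), with 2 libraries for each variety and 34 libraries in all. The varieties were HKG 98, Garia, Aijiaonante, Xibaizhan, WH139, Nanjing11, 9311, Y134, IR72, PeiC122, Yong Chal Byo, TAINO 38, Ginga, LABELLE, Latisai1, Gasym Hany and BASMATI 385, and variety was the only factor that differed between the groups. All of them were sampled as seedlings 2 weeks old, raised in hydroponic culture in a phytotron with 14 h of light at 32 °C and 10 h of darkness at 28 °C, and no treatment other than freezing of the harvested leaves was named. The labels number the 2 libraries of a variety without saying whether they came from separate plants, so that p-values measure the spread between these libraries, which may be technical.

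Expression was given in FPKM, fragments per kilobase of transcript scaled to the number of mapped fragments, which permits levels of different genes to be set side by side. Library sums lay between 609065 and 1442720 FPKM, between 18170 and 20083 genes were above 1 FPKM, and the depth of the libraries, read from the steps between low values, ranged from 0.422 to 1.01 times that of HKG 98 replicate 1. The number of reads is unknown, so that no counting error can be given. The 2 libraries of a variety correlated across genes with r between 0.951 and 0.995, and the lowest value belonged to PeiC122, whose libraries stood apart from each other in most of the PAL genes and in C4H. The tissue was checked with lists of identifiers written down from general knowledge, since the sources used here do not pair them with names. The 6 found of 7 leaf genes summed to between 16704 and 32752 FPKM per library, against 4.68 to 12.2 FPKM for 5 root genes and 1.01 to 14.8 FPKM for 8 floral genes. In whole leaves, a lower level of a transcript cannot be told apart from fewer cells of a type that carries it.

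PAL transcripts of young leaf came mainly from 2 copies of the cluster on chromosome 2. LOC_Os02g41630 had the highest level of the 9 PAL genes in all 34 libraries and LOC_Os02g41650 the next highest in all 34. LOC_Os02g41630 made up 52.3% to 76.3% of the summed PAL level (median 63.9%) and LOC_Os02g41650 up to 28.5% (median 24.7%). The 4 genes of the cluster together held 86.1% to 96.7% of the sum, with the lowest share in TAINO 38 replicate 2 and the highest in 9311 replicate 2. By its mean over the libraries LOC_Os02g41630 ranked at place 29 and C4H at place 270 among all genes listed. C4H stood below LOC_Os02g41650 and above LOC_Os02g41680 in all 34 libraries.

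**Figure D1:**
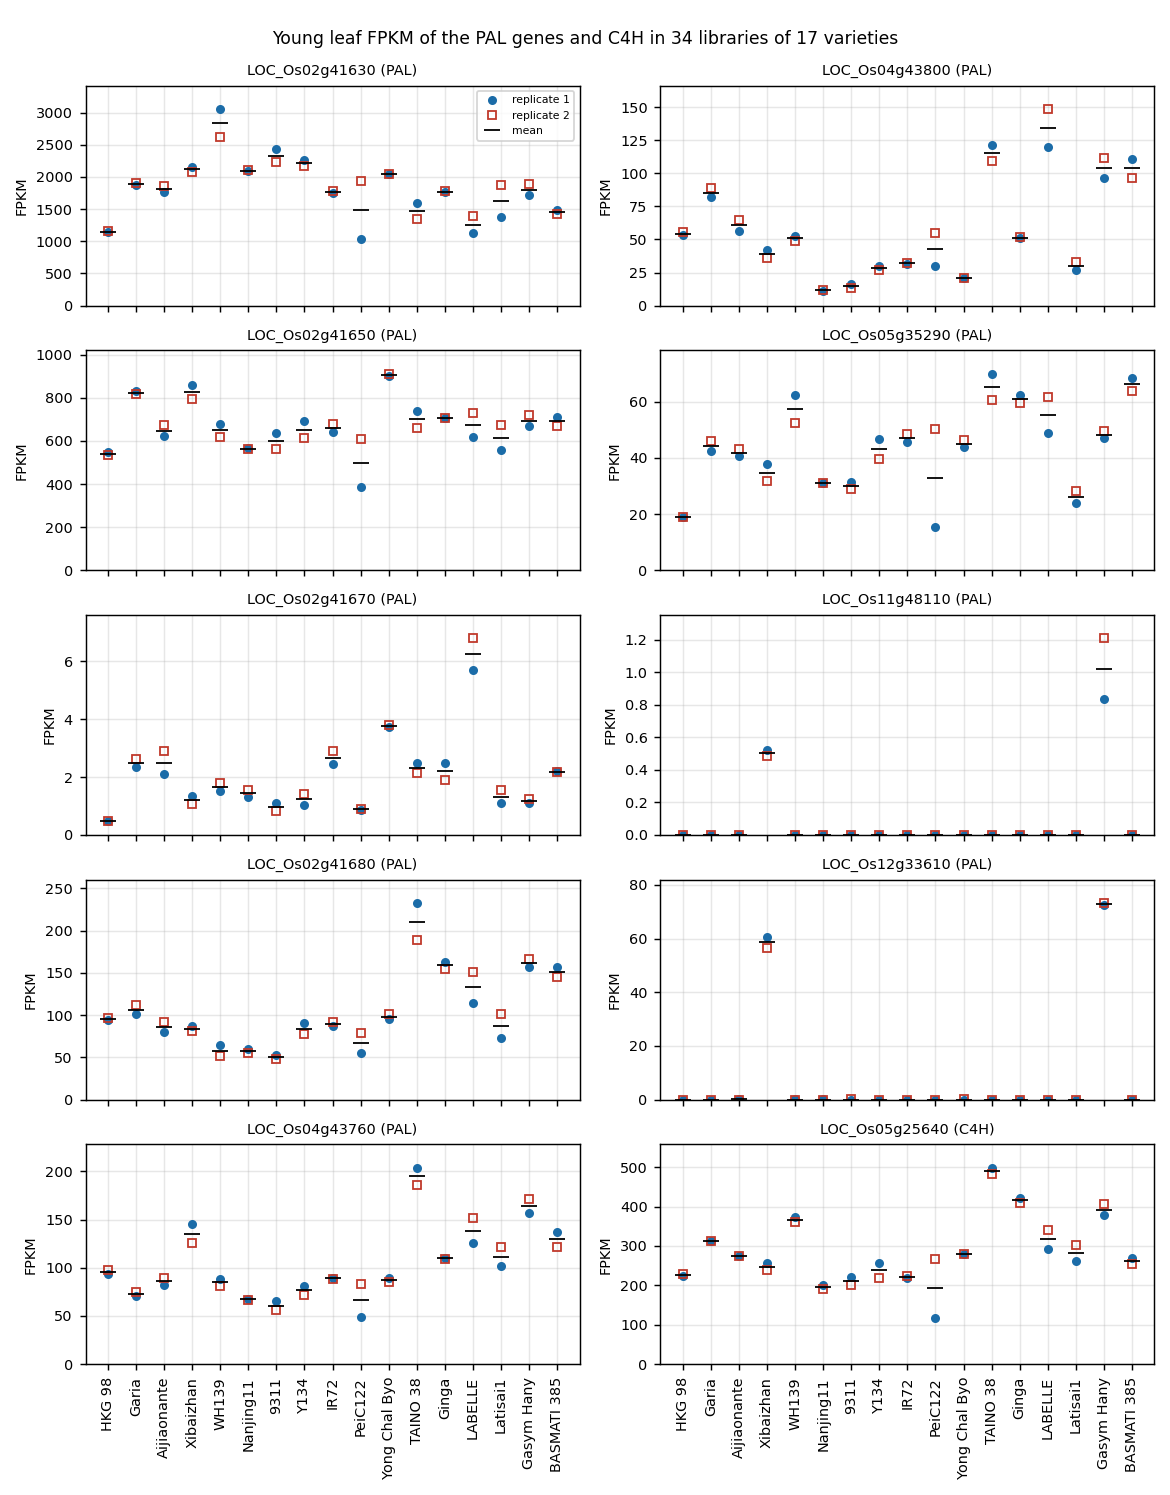
FPKM of the 9 PAL genes and of C4H in each of the 34 young leaf libraries, with 1 panel per gene on its own linear axis, varieties on the x axis, filled circles for replicate 1, open squares for replicate 2 and a bar at their mean. LOC_Os12g33610 and LOC_Os11g48110 are seen above 0.1 FPKM only in Xibaizhan and Gasym Hany, and the replicates of PeiC122 lie far apart for C4H, at 117 and 268 FPKM.

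To ask whether the varieties differed in these genes, log2(FPKM + 1) was compared among the 17 varieties with the moderated F test of limma, and a gene was called at an adjusted p below 0.01 and a difference above 1.5-fold between its highest and lowest variety. Of all genes tested, 68.8% met this rule, so that a call by itself says little about a gene. All 10 genes were called, although LOC_Os11g48110 entered the test only through Gasym Hany and LOC_Os12g33610 only through Xibaizhan and Gasym Hany. Each gene was then compared in all pairs of varieties with adjustment over all genes and pairs, a comparison in which 16.7% of pairs were called over all genes. This share was 5.88% for LOC_Os02g41650 and 13.2% for LOC_Os02g41630, below the background, and 16.9% for LOC_Os05g35290 and 20.6% for C4H, close to it. LOC_Os04g43760 with 39.7%, LOC_Os02g41670 with 44.9%, LOC_Os02g41680 with 52.2% and LOC_Os04g43800 with 69.9% were above it. Without both PeiC122 libraries, whose replicates disagree, the background was 19.4% and LOC_Os02g41650 (4.17%) alone remained below it. The shares of LOC_Os02g41630 (24.2%), C4H (27.5%) and LOC_Os05g35290 (38.3%) were then above it, so that their place near or below the background rested on PeiC122.

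LOC_Os02g41630, the main PAL gene of the leaf, had its lowest value at 1038 FPKM, its median at 1873 FPKM and its highest at 3055 FPKM. It was highest in WH139 (3055 and 2618 FPKM) and lowest in HKG 98 (1140 and 1155 FPKM), and the libraries of these varieties did not overlap. The difference was 1.30 ± 0.20 on the log2(FPKM + 1) scale (SE, limma, adjusted p = 3.04e-05), and the means differed 2.47-fold. WH139 was above 6 other varieties and HKG 98 below 7 in the pairwise test. No neighbours in the order of the 17 varieties differed beyond their spread, from 9311 (2331 FPKM) next to WH139 down to LABELLE (1259 FPKM) next to HKG 98.

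LOC_Os02g41650, the next copy of the cluster, differed least between variety means of the 7 PAL genes listed above 0 in every library (1.83-fold) and ranged from 384 through a median of 671 to 911 FPKM. Yong Chal Byo was at 902 and 911 FPKM, Xibaizhan at 860 and 796 FPKM and Garia at 830 and 816 FPKM. These 3 varieties were the highest, with no overlap with the libraries of HKG 98 at 546 and 536 FPKM. The lowest mean was that of PeiC122 (384 and 608 FPKM), 0.91 ± 0.15 below Yong Chal Byo on the log2(FPKM + 1) scale (SE, limma, adjusted p = 8.51e-05). That difference rested on PeiC122 replicate 1, since it was 0.58 without this library and 1.24 without replicate 2. The level of LOC_Os02g41650 relative to LOC_Os02g41630 varied more between varieties than between replicates. It was 22.3% in WH139 replicate 1 and 54.5% in LABELLE replicate 1, with a median of 38.6%, while the replicates of a variety differed by 1.37 percentage points at the median and by 5.55 at most.

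LOC_Os02g41670, between these copies and LOC_Os02g41680 in identifier order, was listed at low levels, from 0.465 through 1.67 to 6.78 FPKM, and exceeded 1 FPKM in 29 libraries. LABELLE was highest with 5.69 and 6.78 FPKM, and HKG 98 lowest with 0.465 FPKM in both libraries. On the log2(FPKM + 1) scale, which understates changes of low genes, the difference was 2.30 ± 0.14 (SE, limma, adjusted p = 4.48e-11), and it was 3.48 with a pseudocount of 0.1. LABELLE was above each of the 16 other varieties, and its step down to Yong Chal Byo (3.74 and 3.80 FPKM) was the only difference between neighbours in the order that was called (0.60 ± 0.14, limma, adjusted p = 0.00236). HKG 98 was below 13 varieties.

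LOC_Os02g41680, the last copy of the cluster, ran from 48.4 through 93.2 to 232 FPKM. TAINO 38 was highest at 232 and 188 FPKM, followed by Gasym Hany (156 and 166 FPKM), Ginga (163 and 154 FPKM) and BASMATI 385 (156 and 145 FPKM). The lowest were 9311 (53.1 and 48.4 FPKM), Nanjing11 (59.8 and 54.6 FPKM) and WH139 (64.4 and 51.2 FPKM), and none of their libraries reached any library of the 4 highest varieties. TAINO 38 exceeded 9311 by 2.02 ± 0.17 on the log2(FPKM + 1) scale (SE, limma, adjusted p = 7.70e-09), or 4.14-fold between means. WH139, the variety with the highest LOC_Os02g41630, was thus among the lowest in this neighbouring copy.

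LOC_Os04g43760, the first gene of the pair on chromosome 4, had nearly the same levels as LOC_Os02g41680, from 49.4 through 89.8 to 204 FPKM. LOC_Os02g41680 was above LOC_Os04g43760 in 16 libraries and below it in the rest. TAINO 38 was again highest (204 and 186 FPKM) and 9311 had the lowest mean (65.2 and 56.0 FPKM), a difference of 1.67 ± 0.16 on the log2(FPKM + 1) scale (SE, limma, adjusted p = 6.19e-08). Gasym Hany (157 and 171 FPKM), LABELLE (126 and 152 FPKM) and Xibaizhan followed TAINO 38. The varieties in the middle of the order, from Ginga at 110 FPKM to Garia at 73.3 FPKM, formed a series in which no neighbours differed beyond their spread.

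LOC_Os04g43800, the second gene of the pair, had the widest range on the log2(FPKM + 1) scale of the 7 PAL genes listed above 0 in every library. It ran from 11.1 through 51.4 to 149 FPKM. LABELLE (120 and 149 FPKM), TAINO 38 (122 and 109 FPKM), Gasym Hany (96.5 and 112 FPKM) and BASMATI 385 (111 and 96.6 FPKM) were highest. Each of them was above 12 other varieties. Nanjing11 (11.1 and 11.8 FPKM), 9311 (16.1 and 13.3 FPKM) and Yong Chal Byo (21.1 and 20.9 FPKM) were lowest, and no library of these varieties overlapped with those of any other variety. LABELLE exceeded Nanjing11 by 3.43 ± 0.18 on the log2(FPKM + 1) scale (SE, limma, adjusted p = 4.59e-12), or 11.7-fold between means. By this fold between means LOC_Os02g41670, listed at low levels, differed more (13.4-fold). Nanjing11 was below 15 varieties and 9311 below 14.

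The 2 genes of the chromosome 4 pair were not in a fixed ratio. LOC_Os04g43800 amounted to 16.3% and 17.7% of LOC_Os04g43760 in the libraries of Nanjing11 and to 24.2% in 9311 (mean of 2 libraries). The same mean ratio was 96.8% in LABELLE and 117% in Garia, the only variety in which LOC_Os04g43800 was above its partner. Replicates differed by 4.55 percentage points at most, so that the varieties at both ends were separated by far more than the spread between libraries. Reads shared by similar copies can be divided between them by the quantification, and this applies to every ratio of PAL genes given here. Its part in these values was not tested.

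LOC_Os05g35290, the PAL gene on chromosome 5, ran from 15.3 through 45.8 to 69.9 FPKM. BASMATI 385 (68.4 and 64.0 FPKM), TAINO 38 (69.9 and 60.5 FPKM) and Ginga (62.6 and 59.4 FPKM) were highest. HKG 98 was lowest with 18.9 FPKM in both libraries and was below 11 varieties, and Latisai1 (23.8 and 28.4 FPKM) was below 5. BASMATI 385 exceeded HKG 98 by 1.75 ± 0.29 on the log2(FPKM + 1) scale (SE, limma, adjusted p = 8.17e-05). The libraries of PeiC122 spanned 15.3 to 50.3 FPKM, the widest gap between replicates of any variety for this gene.

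LOC_Os12g33610, the PAL gene on chromosome 12, separated the varieties into 2 groups. It was at 60.7 and 56.4 FPKM in Xibaizhan and at 72.4 and 73.2 FPKM in Gasym Hany. In the 30 libraries of the 15 other varieties it was listed at 0 in 25 and between 0.0308 and 0.0878 FPKM in the remaining 5. No fold is given against values listed at 0, and the limma difference between Gasym Hany and Xibaizhan was not called. In the 4 libraries where it was present, LOC_Os12g33610 stood at place 5 or 6 among the PAL genes and held 1.76% to 2.48% of their summed level. The pattern of LOC_Os12g33610 was then sought in all genes listed, with limits that it meets by its own values. A level above 1 FPKM in all 4 of these libraries and at most 0.1 FPKM in the other 30 was found for 2 genes. They were LOC_Os12g33610 and LOC_Os12g33289, both with chromosome 12 identifiers. With a limit of 1 FPKM in the other 30, the number was 4. Of the 6 nearest identifiers, LOC_Os12g33600 had a like pattern at a low level, with 0.663 to 1.58 FPKM in the 4 libraries and 0 in the other 30. The other 5 were at 0.166 FPKM or less in every library. Reads of a variety that do not match the gene models listed would be missing from these values, and their part in the zeros was not tested.

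LOC_Os11g48110, the PAL gene on chromosome 11, was listed above 0 in the same 4 libraries only. It was at 0.520 and 0.483 FPKM in Xibaizhan, at 0.836 and 1.21 FPKM in Gasym Hany, and at 0 in 30 libraries. These levels were 0.856% to 1.65% of those of LOC_Os12g33610 in the same libraries. Whether reads of LOC_Os12g33610 contribute to them was not tested. The gene passed the filter of 1 FPKM through the mean of Gasym Hany (1.02 FPKM) alone and was not tested without replicate 2 of that variety.

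C4H (LOC_Os05g25640) ran from 117 through 272 to 498 FPKM. TAINO 38 was highest at 498 and 484 FPKM, followed by Ginga (422 and 410 FPKM), Gasym Hany (377 and 406 FPKM) and WH139 (373 and 361 FPKM). These 4 varieties did not overlap with any library of the other 13. The lowest means were those of PeiC122 (117 and 268 FPKM), Nanjing11 (200 and 192 FPKM) and 9311 (223 and 201 FPKM). TAINO 38 exceeded PeiC122 by 1.46 ± 0.21 on the log2(FPKM + 1) scale (SE, limma, adjusted p = 1.51e-05), a value that was 0.87 without PeiC122 replicate 1 and 2.06 without replicate 2. With both PeiC122 libraries left out, Nanjing11 was the lowest, 1.32 ± 0.08 below TAINO 38 (SE, limma, adjusted p = 7.84e-11).

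In PeiC122 replicate 1, C4H was at 43.9% of its level in replicate 2, LOC_Os02g41630 at 53.7% and the other PAL genes at 30.5% (LOC_Os05g35290) to 70.4% (LOC_Os02g41680). LOC_Os02g41670 was the exception, at 96.8%. Over the 10289 genes above 10 FPKM in PeiC122, the median difference had the opposite sign, with replicate 1 higher by 0.18 on the log2(FPKM + 1) scale. Replicate 1 also had the fewest genes above 1 FPKM of the 34 libraries (18170). Without both PeiC122 libraries, a choice made after the data were seen, all 10 genes were again called, with 73.5% of all genes tested. The pooled SD between replicates fell from 0.22 to 0.08 for C4H and from 0.31 to 0.12 for LOC_Os05g35290. Among the 120 pairs of the other 16 varieties, LOC_Os05g35290 then had 46 called in place of 20, C4H 33 in place of 22 and LOC_Os02g41630 29 in place of 16.

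**Figure D2:**
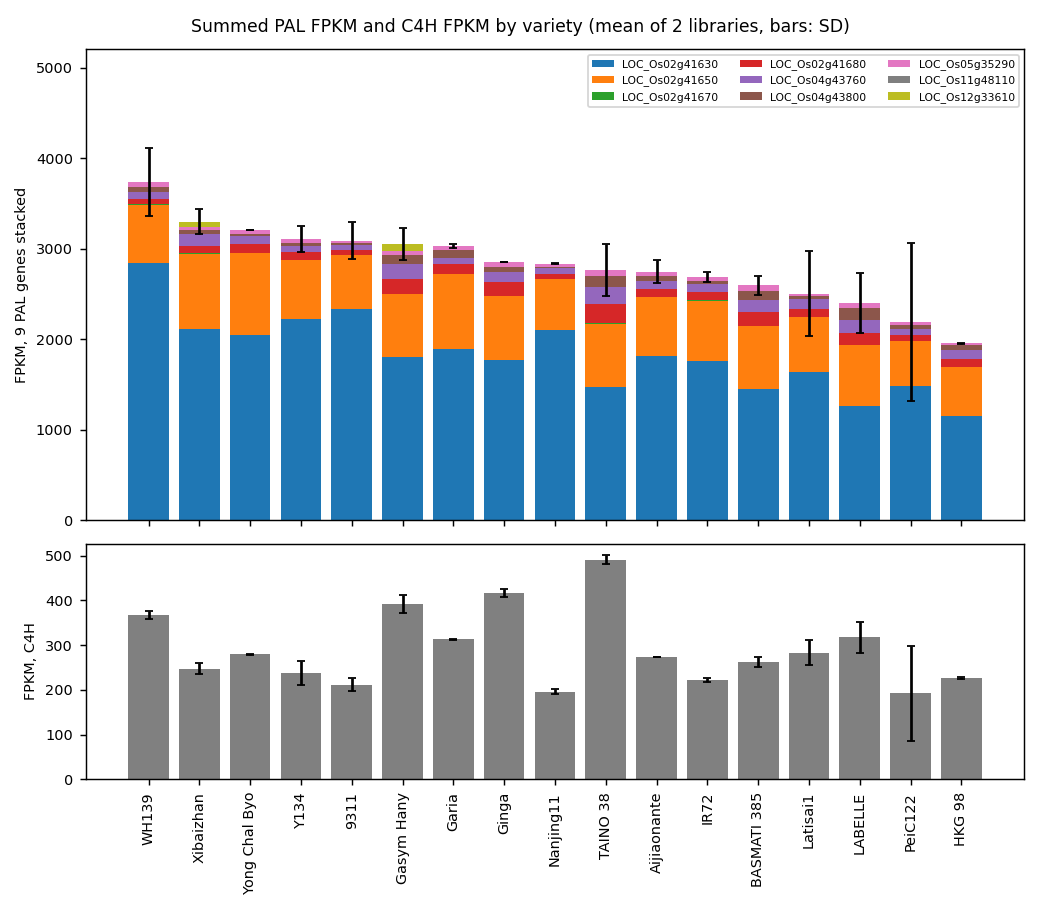
Upper panel: summed FPKM of the 9 PAL genes by variety, stacked by gene and ordered by the sum. Lower panel: C4H FPKM in the same order. Bars are means of 2 libraries and error bars the SD. WH139 has the highest PAL sum (3739 FPKM) and TAINO 38 the highest C4H level (491 FPKM), and the orders of the panels differ.

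Summed over the 9 genes, the PAL level was 1574 FPKM in PeiC122 replicate 1, 2847 FPKM at the median and 4004 FPKM in WH139 replicate 1. The variety means ran from 1953 ± 8.64 FPKM in HKG 98 to 3739 ± 376 FPKM in WH139 (SD, n = 2 libraries). The PAL sum was 5.28 times the level of C4H in TAINO 38 replicate 2 and 14.8 times in Nanjing11 replicate 2. The replicates of a variety differed in this ratio by 0.195 at the median and by 2.91 at most, the latter in PeiC122. TAINO 38 (5.62), Ginga (6.87), LABELLE (7.56) and Gasym Hany (7.78) had the lowest mean ratios, and 9311 (14.6), Nanjing11 (14.5), Xibaizhan (13.3) and Y134 (13.1) the highest.

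Several of the genes other than the main copy were high in the same varieties. Over the 17 variety means on the log2(FPKM + 1) scale, 24 of 28 pairs of the 8 genes listed above 0 in every library had a positive correlation, with r from −0.53 to 0.83 and a median of 0.44. These correlations are descriptions over points that share their libraries. The 24 include the 0.00 of LOC_Os02g41630 with C4H, and the share of positive pairs among all genes was not determined. The closest pair was LOC_Os02g41680 and LOC_Os04g43760 (Pearson r = 0.83, Spearman rho = 0.77), from different chromosomes. Without the 2 varieties farthest from the median of LOC_Os02g41680, r was 0.71. LOC_Os02g41630 had negative r with LOC_Os02g41680 (−0.53), LOC_Os04g43800 (−0.52) and LOC_Os04g43760 (−0.40). Its r was −0.10 with LOC_Os02g41670, 0.00 with C4H, 0.15 with LOC_Os05g35290 and 0.30 with LOC_Os02g41650. C4H had r = 0.72 with LOC_Os02g41680, 0.70 with LOC_Os04g43760, 0.68 with LOC_Os05g35290 and 0.63 with LOC_Os04g43800. For each of these pairs the 2 varieties farthest from the median of its PAL gene were then left out, so that the varieties dropped can differ between pairs. The 4 values were 0.54, 0.48, 0.79 and 0.51, and that of C4H with LOC_Os02g41630 was −0.30. C4H and the PAL sum had r = 0.34, or 0.26 without the 2 varieties farthest from the median of C4H.

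**Figure D3:**
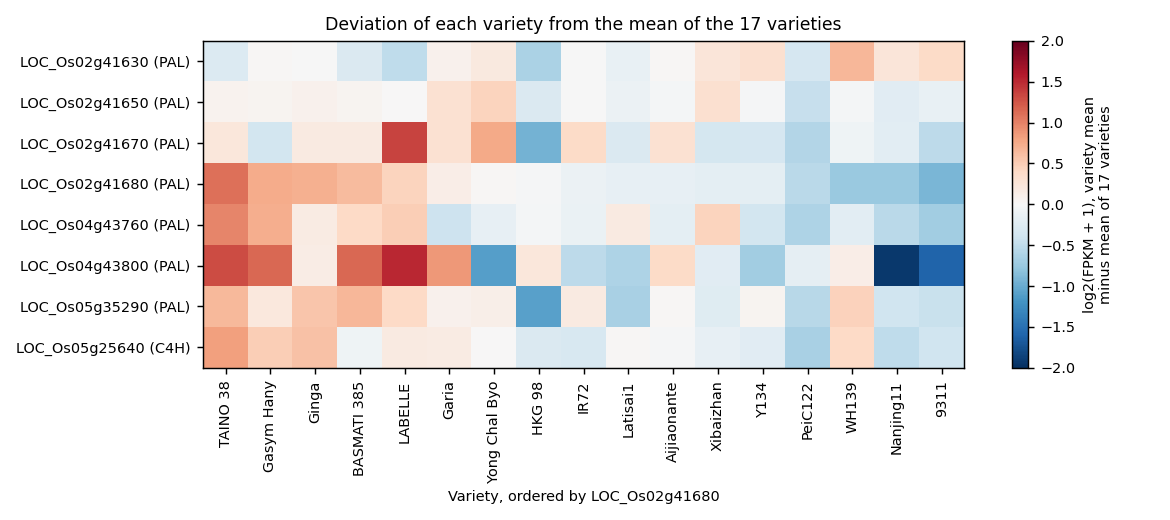
Deviation of each variety mean from the mean of the 17 varieties, in log2(FPKM + 1) units (red, higher; blue, lower; scale from −2 to 2), for the 7 PAL genes listed above 0 in every library and C4H, with varieties ordered by LOC_Os02g41680. The order fixes the gradient of the LOC_Os02g41680 row. The rows from it down to C4H are below their means in Nanjing11 and 9311, whereas LOC_Os02g41630 is above its mean in these varieties. WH139, next to them in the order, is above the mean for LOC_Os05g35290 and C4H.

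**Figure D4:**
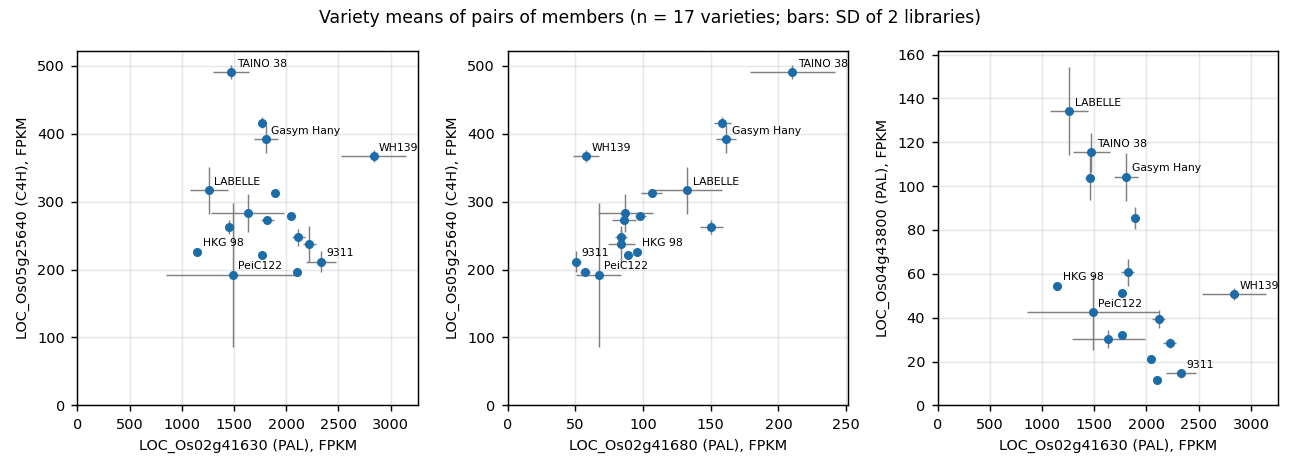
Variety means in FPKM (n = 17 varieties) of C4H against LOC_Os02g41630 (left), C4H against LOC_Os02g41680 (centre) and LOC_Os04g43800 against LOC_Os02g41630 (right), with SD of 2 libraries as bars. C4H has r = 0.00 with LOC_Os02g41630 and r = 0.72 with LOC_Os02g41680 on the log2(FPKM + 1) scale, and TAINO 38 lies at the upper end of both C4H panels.

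By variety, TAINO 38 was among the 3 highest for 5 of the 8 genes listed above 0 in every library, Gasym Hany for 4, and LABELLE and Ginga for 3 each. In the comparisons of a variety with the 16 others over these 8 genes, TAINO 38 was called higher in 57 (44.5%), against 11.3% of its comparisons over all genes. LABELLE was called higher in 48 (37.5%, against 10.1% over all genes) and Gasym Hany in 39 (30.5%, against 8.24%). BASMATI 385 (37, 28.9%, against 7.95%) and Ginga (33, 25.8%, against 7.91%) came close to Gasym Hany. At the other end, 9311 was called lower in 50 comparisons (39.1%, against 9.17% over all genes), HKG 98 in 47 (36.7%, against 8.98%), Nanjing11 in 41 (32.0%, against 8.81%) and PeiC122 in 40 (31.2%, against 11.8%). Replicate 1 lowered the means of PeiC122 in most of these genes, with C4H at 117 FPKM in it and 268 FPKM in replicate 2. The comparisons share varieties and are not independent. HKG 98 was the lowest variety for LOC_Os02g41630, LOC_Os02g41670 and LOC_Os05g35290, whereas 9311 and Nanjing11 were the lowest for LOC_Os02g41680 and LOC_Os04g43800. LABELLE combined the highest levels of LOC_Os02g41670 and LOC_Os04g43800 with a low level of LOC_Os02g41630 (1131 and 1387 FPKM).

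Of 31 other identifiers written down as genes of the phenylpropanoid pathway, 25 were tested and 22 were called, beside 68.8% of all genes tested. The median difference between highest and lowest variety was 1.51 on the log2(FPKM + 1) scale, against 1.24 over all genes tested. PeiC122 was the lowest variety for 10 of the 25 genes (40%), against 14.6% of all genes tested. The summed level of all 31 identifiers was 1117 FPKM in its replicate 1 and 2437 FPKM in its replicate 2. Without both PeiC122 libraries the median was 1.27 for the list and 1.15 over all genes. The sources used here give these identifiers no names, and none is assigned. LOC_Os02g46970 ran from 23.2 through 47.7 to 127 FPKM, with TAINO 38 above Nanjing11 by 2.07 (limma F test, adjusted p = 2.53e-07). The largest difference was that of LOC_Os10g12080, listed from 0 through 14.6 to 55.2 FPKM, highest in LABELLE and lowest in BASMATI 385 (5.45, or 8.74 with a pseudocount of 0.1, adjusted p = 2.05e-13). It was followed by LOC_Os09g23540, highest in 9311 and lowest in Garia (3.03, adjusted p = 1.18e-07).

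Other large differences were those of LOC_Os10g36848 (1.98, highest in Yong Chal Byo, adjusted p = 1.63e-05) and LOC_Os09g30360 (1.67, highest in HKG 98, adjusted p = 0.00913). The call of LOC_Os09g30360 was lost in 28 of 34 fits that left out 1 library each, with adjusted p up to 0.0234 in limma. For LOC_Os02g39850 (2.32, highest in Garia), LOC_Os08g38920 (2.21, highest in LABELLE) and LOC_Os06g06980 (1.97, highest in BASMATI 385) the lowest variety was PeiC122, with adjusted p of 0.00413, 0.000126 and 7.57e-09. The difference of LOC_Os08g38920, whose lowest library is listed at 0, was 5.21 with a pseudocount of 0.1. The value for LOC_Os02g39850 was 1.15 without PeiC122 replicate 1 and 3.49 without replicate 2.

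Among the 24558 other genes tested, those whose variety means followed C4H most closely were LOC_Os02g38220 (r = 0.92), LOC_Os03g56930 (r = 0.90) and LOC_Os11g03240 (r = 0.88). LOC_Os03g56930 ran from 63.7 through 237 to 681 FPKM and LOC_Os02g38220 from 15.2 through 22.1 to 27.7 FPKM. The PAL sum was followed most closely by LOC_Os02g21070 (r = 0.86), LOC_Os09g38040 (r = 0.85) and LOC_Os02g48184 (r = 0.83). These are the highest of many correlations over 17 points, and nothing further is read from them.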

How the data were processed

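RNA-Seq of young leaves was taken from 34 of 58 libraries (17 varieties, 2 replicates each). The other 24 libraries, of MH63, ZS97 and Nip, list genes by MH63 identifiers and were not analysed here. Per the methods of the study, the authors filtered reads with Trimmomatic (0.36), mapped them with TopHat2 (2.1.0) and quantified genes with Cufflinks (2.2.1, whereas the submitters' processing notes name 2.2.5). The deposited values are FPKM per gene, listed for these varieties by LOC_Os identifiers. The methods name the MH63 and ZS97 genomes for RNA-Seq, and the reference mapped to for the LOC_Os tables is not given in the sources used here. The column headers number the 34 libraries as a joint Cufflinks run does, so that scaling across them may be included.

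The filter kept the 24568 genes whose mean in some variety exceeded 1 FPKM. For these, log2(FPKM + 1) entered 1 fit of the 34 libraries in limma (version 3.58.1, under R version 4.3.3) with a trend, followed by a moderated F test over varieties and contrasts for all pairs of varieties, with two-sided tests and Benjamini-Hochberg adjustment over all genes (for pairs, over genes and pairs). Calls needed an adjusted p below 0.01 and a difference above 1.5-fold, which the study gives for chromatin marks among varieties and not for RNA-Seq. The study's own test needs counts, which FPKM are not. With 2 libraries a variety, an exact permutation test of a single pair cannot go below p = 0.333. Permutation tests over the 17 varieties (100000 resamples) gave p between 1e-05, the smallest they can give, and 0.00118 for the 10 genes. On simulated data of 22246 genes and 17 varieties, 100 genes were changed by 1 and 100 by 3 on the log2 scale, each in 1 variety only. The fit called 40% of the former and 93% of the latter. Differences spread over many varieties were not simulated.

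The 10 genes and the lists of pathway, leaf, root, floral and defence genes were chosen with earlier results of these data known. Named beside the 10 genes are the called pathway genes with the largest differences, up to 8, and the 3 genes most correlated with C4H and with the PAL sum. No 2 files held identical values. Alternatives were a pseudocount of 0.1, no filter, a filter on the overall mean, quantile normalization, median-ratio scaling (factors 0.973 to 1.09), robust variances, a replicate block, and leaving out each library. Levels, ratios and plots were made in Python (version 3.11.15; numpy version 2.4.6, pandas version 2.3.3, scipy version 1.17.1, matplotlib version 3.10.9).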

Additional observations from a re-analysis of the deposited data

How the results depend on the processing

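The 10 genes kept their direction and their call under a pseudocount of 0.1, no filter, quantile normalization, median-ratio scaling, robust variances and the replicate block. LOC_Os11g48110 was not tested under a filter on the overall mean or without Gasym Hany replicate 2, which left 9 genes called. Leaving out 1 library at a time called 16114 to 20324 genes, the most without PeiC122 replicate 2, and other settings 14426 to 17133. Replicate numbers did not pair the libraries, since the deviations of same-numbered libraries correlated between −0.22 and 0.24 over all pairs of varieties (median 0.00). With the replicate number as a block, 16686 genes, all 10 PAL and C4H genes and 21 pathway genes were called, and of the results named only LOC_Os09g30360 lost its call (adjusted p = 0.0131, limma). LOC_Os09g30360 also lost it with a pseudocount of 0.1 (adjusted p = 0.0192) and without a filter (adjusted p = 0.0178). No value reversed, but the differences of low genes grew with the pseudocount of 0.1, to 3.48 for LOC_Os02g41670, 5.21 for LOC_Os08g38920 and 8.74 for LOC_Os10g12080. Median-ratio scaling left the highest and lowest variety of the 8 genes listed above 0 in every library as they were.

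With 2 libraries a variety and depth unknown, small differences between neighbouring varieties are not resolved, and levels under 1 FPKM are uncertain.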

Other observations

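Of 8 identifiers written down as defence-response genes, all 8 were called by the limma F test, beside 68.8% of all genes tested, with a median difference between highest and lowest variety of 4.27 on the log2(FPKM + 1) scale, against 1.24 over all genes tested. Their summed level ran from 66.7 through 277 to 822 FPKM per library. LOC_Os12g36880 was highest in Nanjing11 and LOC_Os12g36830 highest in Garia, and both were lowest in LABELLE. LOC_Os01g28450 was also highest in Garia, with a median over libraries of 5.93 FPKM. The defence genes did not share a lowest variety, which was Latisai1, WH139, Xibaizhan or PeiC122 for those not lowest in LABELLE. Their summed level was lowest in HKG 98 (66.7 and 72.9 FPKM), against 131 and 159 FPKM in LABELLE. Relations of these levels to those of the PAL genes were not tested.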
